A study of Homo sapiens with 6 samples.

Results

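Polycomb repressive complex 2 (PRC2) was followed here through 10 genes that encode its core and accessory subunits: EZH2, EZH1, EED, SUZ12, RBBP4, RBBP7, MTF2, PHF19, JARID2 and AEBP2. They were chosen by name as subunits of the complex, with earlier results of these data known, and all 10 of them, of 19775 genes measured, were on the array, with 31 of its 54613 probe sets that are not controls. A further probe set annotated to SUZ12 and to its pseudogene SUZ12P1 was left out. The samples were sorted from IGROV1, an established human ovarian carcinoma cell line grown in RPMI 1640 with fetal bovine serum. Cells were stained with Hoechst 33342, a DNA-binding dye. The 3 SP (side population) samples hold cells that keep little dye and the 3 non-SP samples hold cells outside that gate. Neither group received another treatment, both come from this single line, and the labels call the samples biological replicates without saying whether cultures were separate. The p-values below therefore rest on sample-to-sample spread alone, some of which could be technical.

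PRC2 is the enzyme complex that methylates histone H3 on lysine 27, a mark of genes held silent, and it works together with PRC1, which reads that mark. The catalytic subunit is EZH2 or its relative EZH1, and it needs EED and SUZ12 to be active. EZH2 is known as a gene of dividing cells, driven by E2F factors, while EZH1 is also made in cells that have stopped dividing; EZH2 has been studied in ovarian carcinoma for its part in drug resistance and stem-like behaviour. The comparison of SP with non-SP samples asks whether transcripts of the complex differ with dye retention.

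Because EZH2 is known as an E2F target, the promoters of the members were searched for the letters TTTGGCGC, TTTCGCGC, TTTCCCGC and TTTGCCGC, which are forms of the E2F motif, and for CCAAT, the box read by NF-Y, on both strands. Sequences are from RefSeq, build GRCh38.p14, and each window holds 250 bases before and 50 bases after a transcription start. All 10 members matched, with 15 windows. An E2F form was found in 6 windows of 6 members, where 3.31% of all 35116 windows hold one. Counted by gene, that is 6 of 10 members, against 5.40% of protein-coding genes and 6.12% of those whose windows lie within the members' range of GC content. The 6 matches are given as 30 bases each, 5′ to 3′ on the strand of the gene, with the E2F letters in capitals.
EZH2: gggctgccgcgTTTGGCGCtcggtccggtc
EZH1: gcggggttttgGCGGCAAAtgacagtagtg
SUZ12: cgacccctaatTTTCCCGCgaattcagttc
MTF2: accggcagtccGCGGGAAAccaaaatggcg
PHF19: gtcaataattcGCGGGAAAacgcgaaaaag
AEBP2: caaggcgacgtTTTGCCGCgatccccctgc
These stretches lie at chr7:148884272-148884301 on the minus strand for EZH2, chr17:42745137-42745166 on the minus strand for EZH1, chr17:31936807-31936836 on the plus strand for SUZ12, chr1:93079277-93079306 on the plus strand for MTF2, chr9:120877322-120877351 on the minus strand for PHF19 and chr12:19440438-19440467 on the plus strand for AEBP2. The EZH2 match begins at base 2 after the start and the MTF2 match at base 6, while the others begin at -115 (EZH1), -152 (PHF19), -150 (AEBP2) and -189 (SUZ12). The matches in EZH1, MTF2 and PHF19 are on the opposite strand and appear as the reverse complement. No E2F form was found in the windows of EED, RBBP4, RBBP7 and JARID2, which says only that these letters are not in those windows.

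The whole EZH2 window at chr7:148884242-148884541 (minus strand) is printed because EZH2 is the catalytic subunit and its window holds both motifs. E2F and CCAAT letters, in either direction, are in capitals and do not overlap.
EZH2: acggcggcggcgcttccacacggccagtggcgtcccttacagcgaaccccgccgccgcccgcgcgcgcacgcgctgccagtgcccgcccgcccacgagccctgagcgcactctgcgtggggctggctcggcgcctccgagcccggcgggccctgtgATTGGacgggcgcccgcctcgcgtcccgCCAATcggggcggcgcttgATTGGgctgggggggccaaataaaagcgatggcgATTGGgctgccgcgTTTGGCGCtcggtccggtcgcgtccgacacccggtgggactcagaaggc
It holds 4 CCAAT boxes, beginning at -94, -66, -47 and -13, and 0.991% of all windows hold at least 4, while 34.6% hold at least 1. The EZH1 window holds 0. Another EZH2 window, at chr7:148883436-148883735, holds neither motif. A match of letters is a description and not a measured binding site.

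Expression was measured on 6 arrays, 1 per sample, as log2 values whose medians lay between 5.59 and 5.64. Epithelial and ovarian markers bore out the label: all 8 (PAX8, WT1, EPCAM, KRT7, KRT8, KRT18, KRT19 and CDH1) were above the array median on all 6 arrays. Of 13 markers of fibroblasts, blood and endothelium 2, COL1A1 and CDH5, were above the median on all arrays, and CD79A and PECAM1 on 5 of 6. PTPRC and CD3E lay between 2.24 and 3.53, while CD14, CD79A and HBB, at 5.22 to 5.93, were above the negative controls on all 6 arrays. Of the 13, 0 passed the test between groups. The summed log2 level of the 8 epithelial and ovarian markers was 80.7 to 81.5 in non-SP and 81.5 to 81.7 in SP samples, all SP sums being higher by a narrow margin. That of the 5 fibroblast markers was 21.4 to 22.0 in non-SP and 21.1 to 22.0 in SP samples, that of the 5 blood markers 21.0 to 21.9 and 21.7 to 22.2, and that of the 3 endothelial markers 17.6 to 17.8 and 17.1 to 17.4, all SP sums being lower. The part of these markers in the results was not tested. ASNS, the asparagine synthetase gene of the amino acid response, parted the arrays at a log2 value of 11. It stood at 9.60 and 9.90 in non-SP replicates 1 and 3 and at 9.78 in SP replicate 1. It stood at 12.64 in non-SP replicate 2 and at 12.39 and 12.43 in SP replicates 2 and 3. These array sets are not groups of the study, and because the higher set holds 2 SP arrays and 1 non-SP array, a difference between SP and non-SP carries part of any difference between the sets.

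Of the 31 PRC2 probe sets, 0 passed an adjusted p of 0.05 between SP and non-SP samples (limma, Benjamini-Hochberg over all probe sets; lowest adjusted p among them 0.576), where 0.00183% of all probe sets passed. At an unadjusted p under 0.05 there were 2 of 31, 1 in each direction, or 6.45% against 7.31% of all probe sets. The groups did not overlap in 5 of 31 probe sets (16.1%), against 12.5% of all, with SP above in 2 (5.59% of all) and SP below in 3 (6.87% of all). The members' median difference, SP minus non-SP, was -0.07 against -0.02 for all probe sets. These shares lie near those of the whole array. In bulk samples, fewer cells with a transcript and less transcript per cell cannot be told apart. Members differed in direction, as the plot of all probe sets with their intervals shows: EZH2, EED and AEBP2 were higher in SP samples with every probe set they have, and EZH1, SUZ12, RBBP7 and PHF19 were lower with every probe set, all without passing the test. The RBBP4, MTF2 and JARID2 probe sets pointed both ways.

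**Figure D1:**
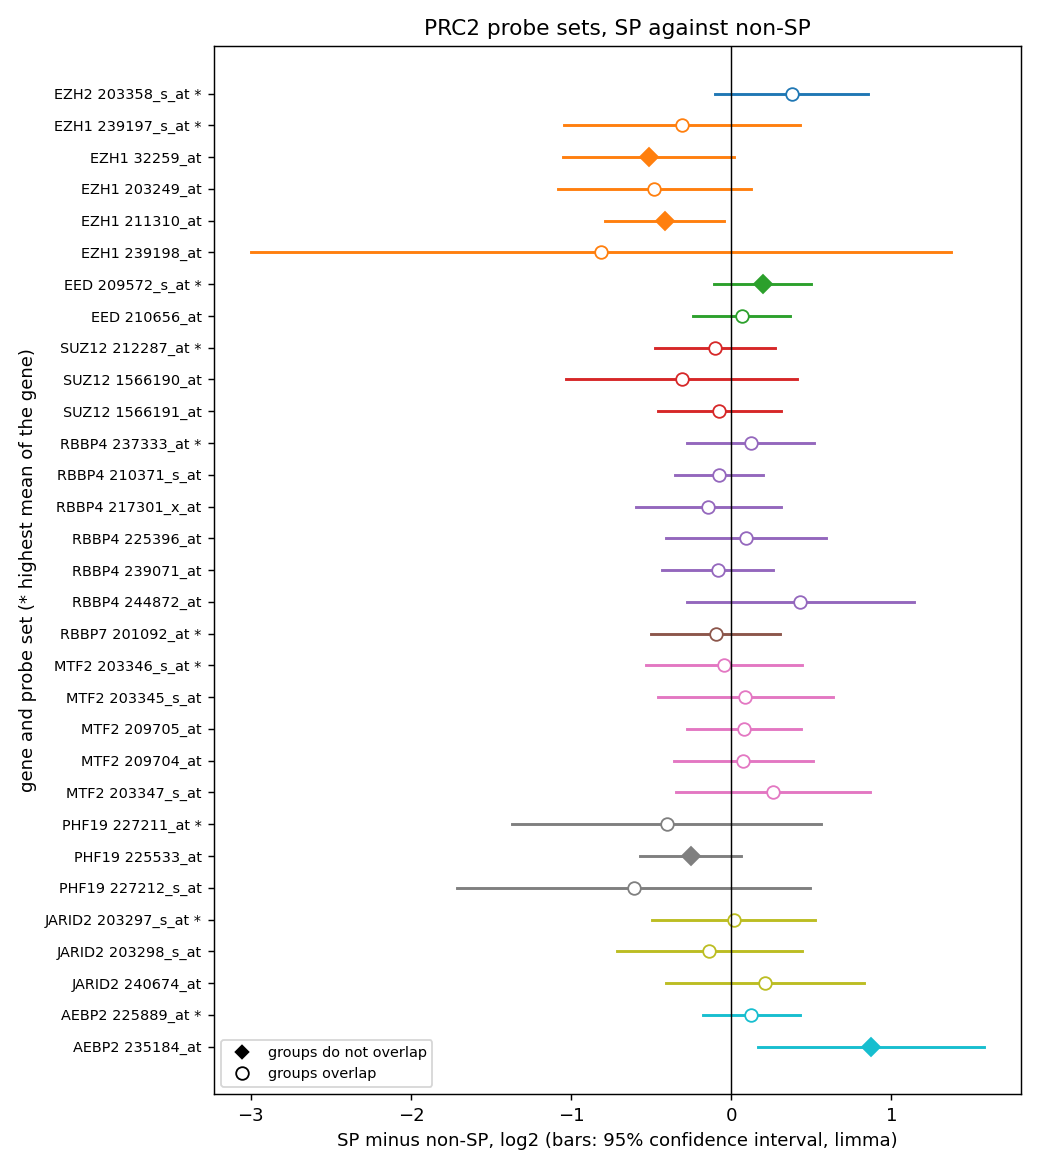
Difference between SP and non-SP samples (log2, x axis) for each of the 31 PRC2 probe sets (y axis), with 95% confidence intervals from limma; filled diamonds mark probe sets whose 3 SP and 3 non-SP values do not overlap, and an asterisk marks the probe set with the highest mean of its gene. The 5 filled diamonds belong to EZH1 (2), EED, PHF19 and AEBP2, and the interval leaves out 0 only for EZH1 211310_at and AEBP2 235184_at.

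EZH2, the catalytic subunit that carries most of the methyltransferase activity in dividing cells, has 1 probe set, 203358_s_at. Its log2 level was 8.10, 7.65 and 7.61 in non-SP replicates 1, 2 and 3 and 8.37, 7.89 and 8.24 in SP replicates 1, 2 and 3. SP replicates 1 and 3 lay above all non-SP values, and the groups overlapped because non-SP replicate 1 exceeded SP replicate 2. The SP mean was 8.16 ± 0.25 (SD, n = 3) and the mean outside the gate 7.79 ± 0.27 (SD, n = 3). They differed by 0.38 (SE 0.20) or 1.30-fold, with a 95% interval of 0.934-fold to 1.81-fold (limma, adjusted p = 0.766). An SP level 1.81 times that of non-SP cells and a level slightly below it are therefore both within the error of these 6 arrays. Within the array sets the order was plainer. Among arrays with ASNS below 11 the SP value of 8.37 was above the non-SP values of 8.10 and 7.61, a difference of 0.51, and among arrays with ASNS above 11 the SP values of 7.89 and 8.24 were above the non-SP value of 7.65, a difference of 0.41. With the array set as a block the EZH2 difference was 0.46 (SE 0.19, 95% interval -0.01 to 0.93; limma, adjusted p = 0.482), and SP values were on 1 side of non-SP values in both sets for 29.4% of all probe sets, 13.7% with SP above.

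EZH1, the alternative catalytic subunit with weaker methyltransferase activity, has 5 probe sets, and all 5 had a lower mean in SP samples, by -0.81 to -0.31 on the log2 scale. Probe set 32259_at read 7.58, 7.61 and 7.51 in non-SP and 7.40, 7.19 and 6.57 in SP replicates 1, 2 and 3. All SP values lay below all non-SP values, with SP replicate 3 the lowest. The difference was -0.51 (SE 0.22; limma, adjusted p = 0.696). Probe set 211310_at read 7.01, 6.94 and 6.60 in non-SP and 6.31, 6.52 and 6.47 in SP samples, again without overlap, although non-SP replicate 3 and SP replicate 2 were close. Its difference was -0.41 (SE 0.15; limma, unadjusted p = 0.034, adjusted p = 0.63), 1 of the 2 among the members with an unadjusted p under 0.05.

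The other EZH1 probe sets overlapped between groups. The brightest of the 5, 239197_s_at, read 8.93, 7.98 and 8.58 in non-SP and 8.64, 7.82 and 8.11 in SP samples, a difference of -0.31 (SE 0.31; limma, adjusted p = 0.898). Its low values were those of the 3 arrays with ASNS above 11, and with the array set as a block its difference was -0.06 (SE 0.16), while 211310_at was at -0.47 (SE 0.15; limma, adjusted p = 0.39) and 32259_at at -0.44 (SE 0.23). Probe set 203249_at differed by -0.48 (SE 0.25), and 239198_at, which ranged from 2.91, the level of the negative controls, to 6.32, by -0.81 (SE 0.91). The EZH1 probe sets thus agree in sign but not in pattern over the arrays. By the platform annotation 32259_at and 203249_at share a source sequence, and 239197_s_at and 239198_at share another, so the 5 are not separate readings. The annotation does not say which transcripts each one reads.

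**Figure D2:**
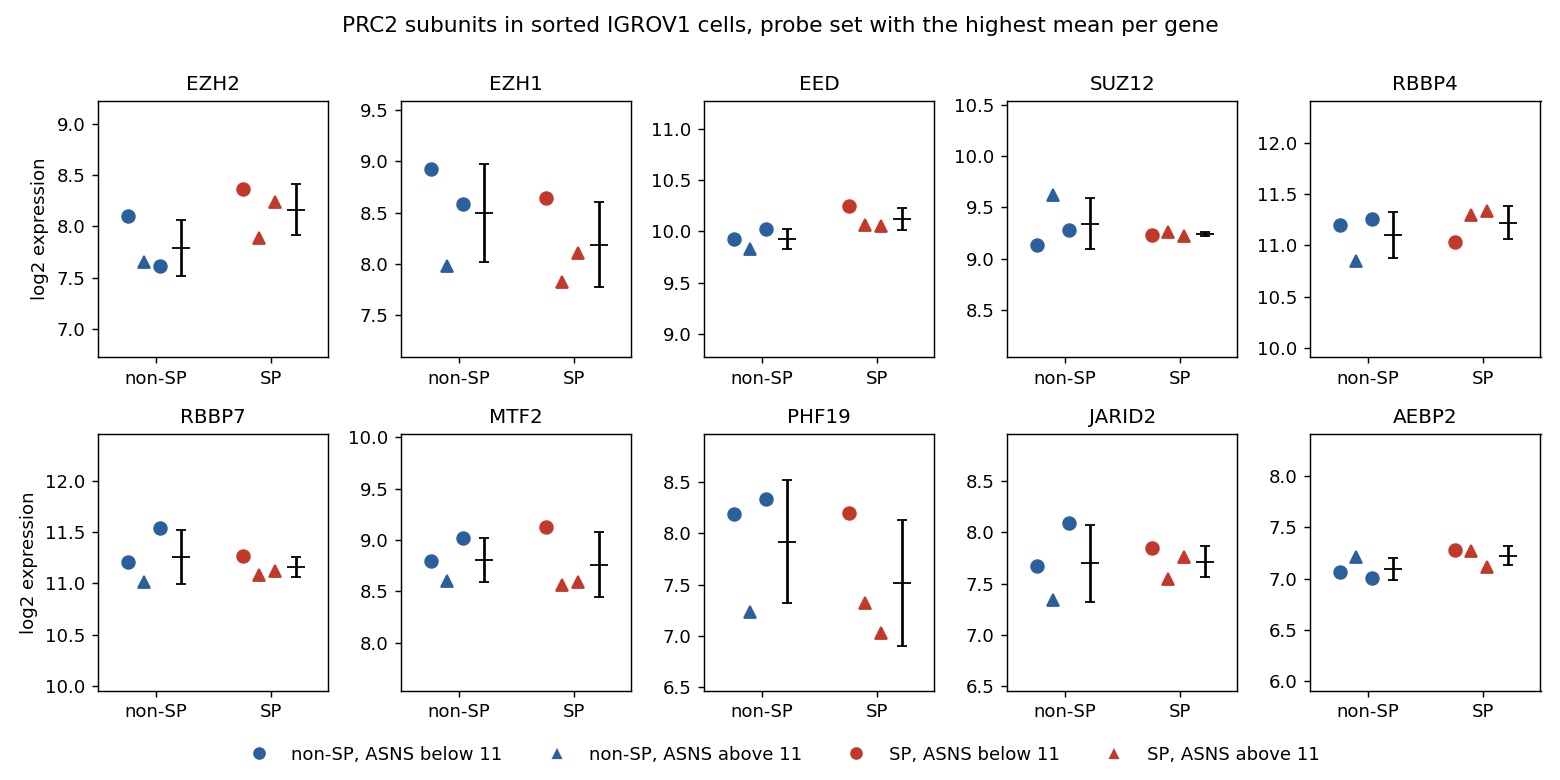
log2 expression (y axis) of the probe set with the highest mean of each PRC2 gene in the 3 non-SP and 3 SP samples, in order of replicate number; triangles are arrays with ASNS above 11, circles arrays below, and black marks give mean ± SD. Every panel spans the same range; EED is the only one of the 10 in which SP and non-SP values do not overlap, and in PHF19 the 3 triangles lie below the 3 circles.

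EED and SUZ12 hold the complex together. EED, which binds trimethylated lysine 27 and stimulates the enzyme, read 9.93, 9.83 and 10.02 in non-SP and 10.25, 10.06 and 10.05 in SP samples with its brighter probe set, 209572_s_at. All SP values were above all non-SP values, though SP replicate 3 and non-SP replicate 3 nearly met. The means were 10.12 ± 0.11 (SD, n = 3) and 9.92 ± 0.09 (SD, n = 3), a difference of 0.20 (SE 0.13) or 1.15-fold, with an interval of 0.929-fold to 1.41-fold (limma, adjusted p = 0.826). The EED difference was 0.23 among arrays with ASNS above 11 and 0.27 among those below. The dimmer probe set, 210656_at, ranged from 5.36 to 5.61 and differed by 0.07 (SE 0.13), with overlap. SUZ12, the scaffold to which the accessory subunits attach, read 9.13, 9.62 and 9.27 in non-SP and 9.23, 9.26 and 9.22 in SP samples with 212287_at. The SP values lay close together inside the non-SP range, and the difference was -0.10 (SE 0.16; limma, adjusted p = 0.939), turning to 0.037 without non-SP replicate 2. Of the other SUZ12 probe sets, 1566190_at differed by -0.31 (SE 0.30) and 1566191_at was dimmer on all 6 arrays than the negative controls, whose means were 2.82 to 2.96. The platform annotation gives these 3 probe sets to SUZ12 alone, and whether they also read the pseudogene SUZ12P1 was not tested.

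RBBP4 and RBBP7 are histone-binding proteins that PRC2 shares with the NuRD and SIN3 deacetylase complexes and, for RBBP4, the chromatin assembly factor CAF-1. RBBP4 has 6 probe sets with differences from -0.14 to 0.43, 3 above and 3 below 0, and 0 without overlap between groups. The brightest, 237333_at, read 11.20, 10.85 and 11.26 in non-SP and 11.03, 11.30 and 11.33 in SP samples, a difference of 0.12 (SE 0.16; limma, adjusted p = 0.926), and it turned to -0.0058 without non-SP replicate 2. Probe set 210371_s_at, almost as bright, differed by -0.08 (SE 0.11) with a 95% interval of -0.35 to 0.20. The largest of the 6, 0.43 (SE 0.30), was that of the dim probe set 244872_at. RBBP4 has many processed copies in the genome, so its probe sets are uncertain in what they read. RBBP7 read 11.21, 11.01 and 11.54 in non-SP and 11.26, 11.08 and 11.12 in SP samples with its 1 probe set, 201092_at, a difference of -0.10 (SE 0.17; limma, adjusted p = 0.946). All RBBP7 values in SP cells fell within the non-SP range.

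MTF2 and PHF19 are Polycomb-like proteins that bring PRC2 to unmethylated CpG-rich DNA. MTF2 has 5 probe sets, all overlapping between groups, with differences from -0.05 to 0.26, 4 of them above 0. Its brightest, 203346_s_at, read 8.80, 8.60 and 9.02 in non-SP and 9.13, 8.57 and 8.59 in SP samples, a difference of -0.05 (SE 0.20; limma, adjusted p = 0.984). SP replicate 1 was the highest of the 6 and the other SP arrays were the lowest, and with the array set as a block the difference turned to 0.10 (SE 0.13).

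PHF19 has 3 probe sets, all with a lower mean in SP samples. The brightest, 227211_at, read 8.19, 7.23 and 8.34 in non-SP and 8.20, 7.32 and 7.03 in SP samples. The 3 low values are those of the arrays with ASNS above 11, whose mean of 7.19 was 1.05 below the mean of 8.24 in the others. The SP minus non-SP difference of -0.40 (SE 0.40; limma, adjusted p = 0.898) was -0.06 (SE 0.14) with the array set as a block, and -0.06 within each set. Leaving out single arrays moved it between -0.75 (without non-SP replicate 2) and -0.16 (without SP replicate 3). Probe set 225533_at did not follow the array sets. It read 6.85, 6.70 and 6.60 in non-SP and 6.52, 6.52 and 6.35 in SP samples, without overlap, a difference of -0.25 (SE 0.13; limma, adjusted p = 0.762) and -0.24 (SE 0.14) with the block. The remaining probe set, 227212_s_at, shares its annotated source sequence with 227211_at. It differed by -0.61 (SE 0.46), with SP replicate 3 at 5.05 as its lowest value.

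JARID2 and AEBP2 form the other variant of PRC2, in which JARID2, a member of the Jumonji family without demethylase activity, and the zinc finger protein AEBP2 help the complex bind nucleosomes. JARID2 read 7.67, 7.34 and 8.09 in non-SP and 7.84, 7.55 and 7.76 in SP samples with 203297_s_at, a difference of 0.02 (SE 0.21; limma, adjusted p = 0.995). All JARID2 values in SP samples fell inside the non-SP range. Its other probe sets differed by -0.14 (SE 0.24) and 0.21 (SE 0.26), with overlap.

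AEBP2 had the largest single difference among the members, but in the dimmer of its probe sets. Probe set 235184_at read 5.39, 4.22 and 4.93 in non-SP and 5.73, 5.84 and 5.59 in SP samples. All SP values were above all non-SP values, and the SP values were the closer together. The means were 5.72 ± 0.12 (SD, n = 3) and 4.85 ± 0.59 (SD, n = 3), a difference of 0.87 (SE 0.29) or 1.83-fold, with an interval of 1.12-fold to 2.99-fold (limma, unadjusted p = 0.0228, adjusted p = 0.576). It was 1.5 among arrays with ASNS above 11 and 0.56 among those below, and 1.03 (SE 0.26; limma, adjusted p = 0.284) with the array set as a block. The brighter probe set, 225889_at, read 7.06, 7.21 and 7.01 in non-SP and 7.28, 7.27 and 7.11 in SP samples, overlapping, with a difference of 0.13 (SE 0.13), or 1.09-fold, and an upper bound of 1.34-fold. The AEBP2 probe sets therefore share a direction, while the point estimate of the dimmer lies outside the interval of the brighter.

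Some members differed between the array sets. Of the 31 probe sets, 6 (19.4%) had non-overlapping array sets, against 23% of all probe sets. By the brightest probe set of each gene it was 4 of 10 members (40%), against 26.9% of all genes. By mean, 25 of the 31 probe sets were lower where ASNS was above 11, against 29052 of all 54613. The 6 without overlap were all lower there: EZH1 239198_at by -2.05 and 239197_s_at by -0.75, PHF19 227211_at by -1.05, JARID2 203298_s_at by -0.49, MTF2 203346_s_at by -0.40 and RBBP7 201092_at by -0.26. The EZH1 239198_at value is uncertain in size, because that probe set stood at 2.91 in SP replicate 3, level with the negative controls there, and at 3.19 in SP replicate 2. The sets were read from ASNS on these same arrays, so these values are descriptions without a test. Of 18 proliferation markers 15 had a lower mean in the same 3 arrays, against 10419 of all 19775 genes. MKI67 and TOP2A, named after values were seen, had the largest shifts of the 18, -1.64 and -1.37. CDK1 (0.27), CCNE1 (0.28) and MCM3 (0.03) were higher there. The ACTB 3′ minus 5′ signal, a sign of RNA length or quality, was 2.46 to 2.55 in those arrays and 2.02 to 2.29 in the others. The part of proliferation and of RNA quality in the lower PRC2 values was not tested. EZH2 was not among the 6 probe sets with non-overlapping array sets, with a difference between array sets of -0.10 and overlapping values.

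**Figure D3:**
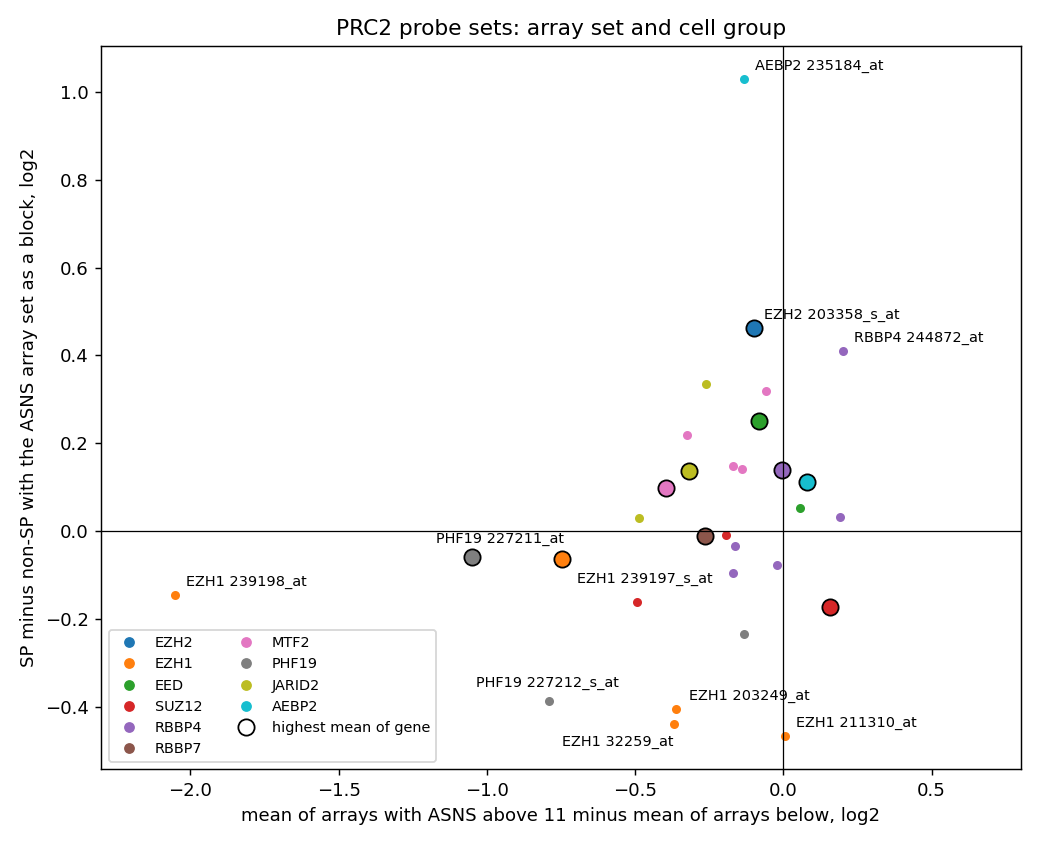
For each of the 31 PRC2 probe sets, the mean of the 3 arrays with ASNS above 11 minus the mean of the 3 arrays below (log2, x axis) against the SP minus non-SP difference with the array set as a block (log2, y axis); large outlined points are the probe set with the highest mean of each gene. PHF19 227211_at (-1.05) and EZH1 239197_s_at (-0.75) lie far left and near 0 on the y axis, while EZH2 (0.46) and AEBP2 235184_at (1.03) lie high and near 0 on the x axis.

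With the array set as a block, 0 of 31 members' probe sets passed (lowest adjusted p = 0.284), against 0.00916% of all probe sets, and at an unadjusted p under 0.05 there were 2 (6.45%), against 10.6% of all. SP values were on 1 side of non-SP values inside both sets for 7 of 31 probe sets (22.6%), which is below the 29.4% over all probe sets, 13.7% with SP above and 15.7% with SP below. The 4 with SP above were EZH2, EED 209572_s_at, MTF2 209705_at and AEBP2 235184_at, and the 3 with SP below were EZH1 32259_at and 211310_at and PHF19 225533_at.

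Among other genes of the pathway, taken by the probe set with the highest mean, 0 passed over all probe sets in any list, and the groups did not overlap for 11.9% of all genes. PHF1, EPOP, LCOR, LCORL and EZHIP, the remaining PRC2 subunits and inhibitors, had a median difference of -0.08, with 2 higher and 3 lower in SP samples and 0 of 5 without overlap. PHF1, the third Polycomb-like protein, differed by -0.15 (SE 0.17). EZHIP, an inhibitor of PRC2, was dim and differed by -0.08 (SE 0.13). KDM6A and KDM6B, which remove the methyl groups from lysine 27, differed by 0.12 (SE 0.24) and -0.25 (SE 0.18). Of 12 subunits of PRC1 listed, 8 were measured with probe sets of their own, 4 higher and 4 lower, and the lowest unadjusted p were those of CBX2 (-0.27, SE 0.15), a reader of methylated lysine 27, and PHC1 (0.30, SE 0.19). The median over all genes was -0.02.

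Genes that oppose PRC2, namely H3K4 and H3K36 methyltransferases and subunits of the SWI/SNF remodeller, had a median of -0.06, with 3 of 14 measured members higher, 11 lower and 0 without overlap. Of all 19775 genes, 10827 were lower. With the array set as a block, 5 of the 14 were higher and 9 lower, with a median of -0.025 against -0.024 for all genes. SMARCA2, an ATPase of SWI/SNF, differed by -0.41 (SE 0.18; limma, adjusted p = 0.707) and the H3K36 methyltransferase NSD1 by 0.25 (SE 0.15). Over all their probe sets, SMARCA2 ran from -0.41 to 0.24 (2 of 7 higher) and NSD1 from -0.33 to 0.38 (2 of 4 higher). Of 19 subunits of the other complexes that hold RBBP4 and RBBP7, 2 had groups without overlap (10.5%), both lower in SP samples: MTA3, a NuRD subunit, at -0.54 (SE 0.17; limma, adjusted p = 0.554), and the deacetylase HDAC1 at -0.21 (SE 0.12). MBD2, the methyl-CpG-binding subunit of NuRD, differed by 0.28 (SE 0.14), while its 4 probe sets ran from -0.41 to 0.605, 3 of them higher. The DNA methylation genes that have been tied to EZH2 included DNMT3A, a de novo methyltransferase, with 6.60, 6.69 and 6.66 in non-SP and 6.33, 5.94 and 6.47 in SP samples. Its values did not overlap between groups, and it differed by -0.40 (SE 0.16; limma, adjusted p = 0.679), while DNMT1 differed by 0.04 (SE 0.13), DNMT3B by -0.01 (SE 0.13) and UHRF1 by 0.10 (SE 0.23).

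Of 12 E2F and RB family genes, listed as factors known to act on the EZH2 promoter, 9 had a higher mean in SP samples, against 8948 of all 19775 genes. Their median was 0.08, and 0 were without overlap. Inside both array sets 0 of 12 had SP values on 1 side, against 29.6% of all genes. The list holds activators and repressors together, so its count of higher means gives no direction for EZH2. E2F3 and E2F1, activators of cell cycle genes, differed by 0.41 (SE 0.18) and 0.35 (SE 0.18; limma, adjusted p = 0.704 and 0.765), and the repressor RBL2 (p130) by -0.38 (SE 0.19). TFDP2, a partner of E2F factors, differed by -0.63 (SE 0.37). Its mean in arrays with ASNS above 11 differed from that in the others by -0.96. With the array set as a block, its SP minus non-SP difference was -0.35 (SE 0.23). The 18 proliferation markers were evenly parted, 9 higher and 9 lower, with a median of 0.00. With the array set as a block, 16 of the 18 were higher in SP samples and 2, MCM4 and MCM6, lower, with a median of 0.20 against -0.02 for all genes. In that fit 4 of 18 (22.2%) had an unadjusted p under 0.05, against 9.28% of all genes, and 0 passed adjustment (lowest adjusted p = 0.33, limma). SP values were on 1 side inside both array sets for 8 of 18 (44.4%), against 29.6% of all genes. The EZH2 difference was also larger with this block, and the part of proliferation in it was not tested. CDK1, the kinase of mitotic entry, read 8.37, 8.95 and 9.06 in non-SP and 9.52, 9.36 and 9.43 in SP samples, all SP values above, a difference of 0.64 (SE 0.20; limma, adjusted p = 0.543). MCM6, a subunit of the replicative helicase, differed by -0.28 (SE 0.13), with all SP values below. An E2F form was present in windows of 5 of 10 E2F and RB genes and 7 of 14 proliferation genes found in the promoter table.

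Genes known in other cells as PRC2 targets did not share a direction. Of 27 measured, 15 were higher and 12 lower in SP samples, with a median of 0.05 and 2 without overlap (7.41%). GATA6, an endoderm transcription factor, read 7.23, 6.72 and 7.06 in non-SP and 8.54, 7.76 and 7.84 in SP samples. All SP values were above, and the difference was 1.04 (SE 0.25) or 2.06-fold (limma, adjusted p = 0.415), while its other probe set differed by 0.14. The other gene without overlap was HOXD10, a homeobox factor, at 0.21, named here after its values were seen. CDH1, which encodes E-cadherin, differed by 0.79 (SE 0.31), IGFBP3, an IGF-binding protein, by 0.39 (SE 0.18), and CDKN2A, the gene of the cell cycle inhibitor p16, by -0.36 (SE 0.20; limma, adjusted p = 0.659, 0.732 and 0.786). CDH1 was also higher by 0.86 where ASNS was above 11, and its SP minus non-SP difference with the array set as a block was 0.56 (SE 0.21). Expression alone does not show whether any of these genes carried the lysine 27 mark in these cells.

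**Figure D4:**
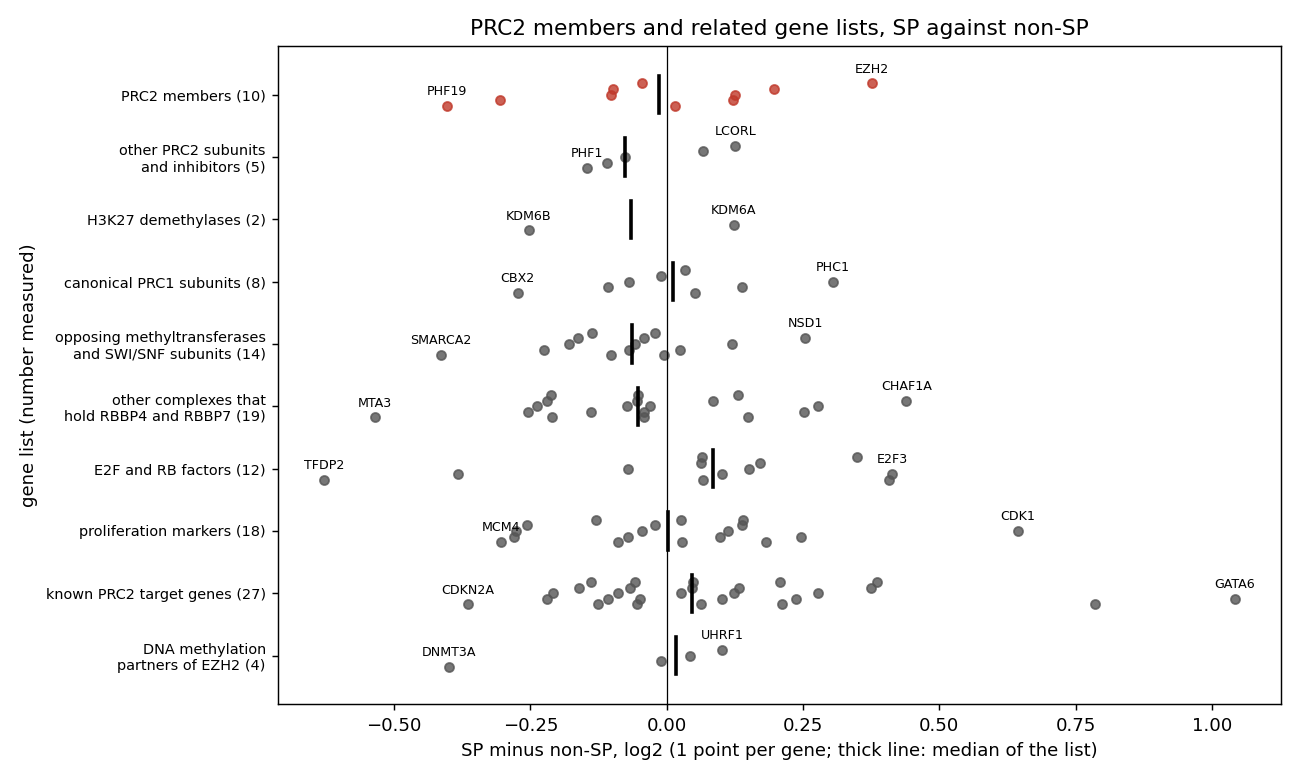
SP minus non-SP difference (log2, x axis) for each gene of the PRC2 member list and of 9 related lists (y axis), each gene by the probe set with its highest mean; thick lines are list medians, and names mark the lowest and highest gene of a list. List medians lie between -0.08 and 0.08, and GATA6 (1.04) and TFDP2 (-0.63) are the outermost genes.

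The genes whose levels over the 6 arrays were most like those of EZH2, by Pearson correlation among 9886 genes above the median level, were GET4 (r = 0.98), SAFB (0.98), ZFYVE1 (0.97), SBNO2 (0.97) and MAST2 (0.97). With 6 arrays and so many genes such values are reached by the choice of the highest, and they are a description. ZFYVE1 read 7.40, 6.64 and 6.91 in non-SP and 8.0, 7.20 and 7.68 in SP samples, and like EZH2 it overlapped between groups through non-SP replicate 1, with a difference of 0.64 (SE 0.27; limma, adjusted p = 0.692). GET4, SAFB, SBNO2 and MAST2 differed by 0.16 to 0.29. Of the other members, each by its brightest probe set, EED was the most like EZH2 (r = 0.66) and SUZ12 the least (r = -0.61). This order depends on the probe set. The dimmer EED probe set had r = -0.09 and the other SUZ12 probe sets 0.18 and 0.47. Among RBBP4 probe sets r ran from -0.76 to 0.79. In the E2F and RB list r ran from -0.82 (RBL2) to 0.82 (E2F1), with E2F3 at 0.05 and E2F4 at -0.01. Of the 9886 genes, 98.3% had a lower r than E2F1 and 1.89% a lower r than RBL2.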

How the data were processed

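Values are the deposited log2 expression levels, made by the authors with R 2.8.1, affy and RMA, per the submitters' processing notes. RNA from sorted cells was amplified before labelling, per the labels' protocols. RMA gives all arrays a shared distribution, so a global change in RNA cannot be seen. No array was a copy of another: of 54675 probe sets, 73 to 192 held the same value in a pair of arrays.

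Each of 54613 probe sets (62 controls left out) was fitted over all 6 arrays by limma 3.58.1 (R 4.3.3; lmFit, eBayes, two-sided), with Benjamini-Hochberg adjustment over all and a threshold of 0.05; intervals cover 95%. The code was tested on simulated data. Negative controls were the TrpnX probe sets. The platform annotation gave 1 symbol to 41091 probe sets and several to 1801, and 11721 were unnamed here. The members and lists were chosen with earlier results of these data known. Genes were named by rule: all members, up to 4 genes by p in each list, and the 5 most like EZH2. MKI67, TOP2A, EPOP and HOXD10 were added after values were seen. Alternatives covered blocks (replicate number, ASNS array set), summaries per gene, a filter on dim probe sets, scaling, the prior, weights and each array left out. Tables were handled in Python 3.11.15 with pandas 2.3.3 and plots made in matplotlib 3.10.9.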

Additional observations from a re-analysis of the deposited data

How the results depend on the processing

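The EZH2 difference kept its sign under all 15 alternatives, from 0.28 to 0.53 on the log2 scale (adjusted p 0.482 to 0.991, limma), and 0 member probe sets passed under any of them. The replicate block, the summaries per gene, the filter and the prior could not move this difference. EZH2 has 1 probe set, and each replicate number holds 1 SP and 1 non-SP array. Only the other alternatives could have changed its sign. Whether the replicate numbers pair the samples is not resolved. Deviations of same-numbered arrays correlated at 0.34, 0.27 and -0.16, and those of SP and non-SP arrays with other numbers at -0.45 to 0.30. With the replicate block EZH2 stayed at 0.38 (adjusted p = 0.572), and the count of all probe sets lower in SP samples went from 1 to 0. That count was also 0 with probe sets averaged per gene and with only probe sets above the median level, 2 with the ASNS array set as a block, and 0 to 2 leaving out arrays; 3 were higher in SP samples with the ASNS block. Member probe sets without overlap were 5 of 31 in the full data. By gene there were 1 of 10 (10%) with 1 probe set per gene, against 11.9% of all genes, and 2 of 10 with the mean of probe sets. Leaving out arrays gave 5 to 12 of 31 (12 without SP replicate 1, 9 without non-SP replicate 1). Leaving out an array can only keep or raise this count. SP replicate 1 is also the only SP array with ASNS below 11. The cause of the spread among these counts was not tested. For the mean of probe sets and with arrays left out, the share over all features was not computed. Those counts therefore do not show whether the members differ from the rest of the array. The count without overlap was not run after cyclic loess. MTF2 turned positive with the per-gene mean (0.092), which averages its 5 probe sets, 4 of them above 0. MTF2 also turned positive with the ASNS block (0.10), and JARID2 turned negative with array weights (-0.14). The cause of the turns with the block and the weights was not tested. Leaving out arrays, PHF19 ranged from -0.75 to -0.16, EZH1 from -0.56 (without non-SP replicate 2) to -0.091 (without non-SP replicate 1), EED from 0.13 to 0.24, AEBP2 from 0.082 to 0.19, SUZ12 ranged from -0.21 to 0.037, RBBP4 from -0.0058 to 0.21, RBBP7 from -0.22 to 0.044, MTF2 from -0.23 to 0.063 and JARID2 from -0.16 to 0.21. With 3 arrays a group, differences of this size are not resolved.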

Other observations

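EZH2 and EZH1 take the same place in the complex, so their within-array log2 difference was computed after their values were seen, with no test. Set relative to the non-SP mean, EZH2 minus EZH1 by probe set 239197_s_at was -0.12, 0.38 and -0.26 in non-SP and 0.44, 0.78 and 0.84 in SP replicates 1, 2 and 3. The groups did not overlap, and the SP mean of 0.68 corresponds to a ratio 1.61 times that of non-SP samples. Against 32259_at the SP mean was 0.89 and against 211310_at 0.79, both also without overlap. Against 203249_at it was 0.86 and against 239198_at 1.19, with overlapping groups. The value against 239198_at is uncertain in size, because that probe set was level with the negative controls in SP replicate 3 and near them in SP replicate 2. Inside the array set with ASNS below 11 the value against 239198_at was -0.61, the opposite direction. All these differences use the same EZH2 probe set, so they are not separate readings. The pair was formed with EZH2 known to be higher and EZH1 lower in SP samples, which favours separation. The share of other gene pairs without overlap was not computed.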
